A study of Mus musculus with 9 samples.

Results

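In 3 single-cell libraries of NIH3T3-CG mouse embryonic fibroblasts, 1080 barcodes carried almost no mitochondrial RNA. They were chosen by their mitochondrial share, as the barcodes with at least 5000 unique molecular identifiers (UMIs, which count captured RNA molecules) of which under 1% fell in the 13 genes of the mitochondrial genome (named mt-). There were 425 of them in the library of 30 h of SAG without Dox, 373 in that of 19 h of SAG with Dox and 282 in that of 30 h of SAG with Dox, 1080 of the 9252 barcodes with at least 5000 UMIs there and of 50106 barcodes in the 9 libraries of the series. They were set against 4703 barcodes of the same libraries with 1% to 10% mitochondrial UMIs, and 3469 with more than 10% were left out of that comparison. Because mitochondrial UMIs chose the barcodes, mt- genes are described without a test and were removed from the CPM totals and the fits. UMI limits, UMI counts per barcode and genes detected include them unless non-mitochondrial UMIs are named. Below, "under-1% barcodes" and "1-10% barcodes" name the 2 classes, values of a gene are CPM, its UMIs summed over a class in a library and scaled to 1000000 non-mitochondrial UMIs, and library values are given in the order 30 h without Dox, 19 h with Dox, 30 h with Dox.

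The study followed the Hedgehog response of NIH3T3-CG cells, an established fibroblast line, released from 6-well plates with trypsin and processed with the 3' v3.1 kit of 10x Genomics. SAG is a small-molecule agonist of Smoothened, the membrane protein that switches the Hedgehog pathway on. Experiment 1 gave libraries at 0, 17 and 30 h of SAG, and Experiment 2 gave libraries at 0, 19 and 30 h with and without Dox, whose target the labels do not state. Each condition was 1 library, so classes of barcodes are compared within libraries, and nothing says that the 3 suspensions came from independent cultures. Each p-value reflects how far paired differences varied from library to library, technical variation included. With 2 residual degrees of freedom, that spread was estimated largely over all genes together. Small p-values therefore do not measure a gene's own variation over the 3 libraries.

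Mitochondrial mRNAs are made and kept inside the mitochondrion, whereas the mRNAs of most respiratory chain subunits, of mitochondrial ribosomal proteins and of the import machinery come from the nuclear genome and are translated in the cytosol. Malat1 and Neat1 are long noncoding RNAs kept in the nucleus. Malat1 gathers in nuclear speckles, where splicing factors are stored, and Neat1 is the scaffold of paraspeckles. In the long form of both, RNase P cuts the 3' end, and U-rich motifs fold with an A-rich tract encoded in the genome into a triple helix that protects it. Both stretches are shown because the results turn on these RNAs and because an A-rich tract inside a transcript can also be primed by the oligo-dT of a 3' kit. Each is given 5' to 3' as DNA, from GENCODE vM21 transcripts on GRCm38 (mm10), both genes on the minus strand, with both U-rich motifs and the A-rich tract in capitals. The Malat1 stretch lies at chr19:5795982-5796065 in a gene at 5795690 to 5802672, and the Neat1 stretch at chr19:5824708-5824797 in a gene at 5824708 to 5845478.
Malat1: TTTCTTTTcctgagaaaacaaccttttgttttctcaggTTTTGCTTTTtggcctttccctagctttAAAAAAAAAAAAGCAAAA
Neat1: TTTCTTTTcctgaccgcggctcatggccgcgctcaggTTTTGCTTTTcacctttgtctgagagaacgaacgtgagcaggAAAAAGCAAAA
The Malat1 stretch occupies positions 6608 to 6691 of an annotated transcript of 6983 bases and the Neat1 stretch positions 20682 to 20771 of a transcript of 20771 bases. Both genes hold the same first motif (TTTCTTTT) and the same second one (TTTT, GC and TTTT), and their A-rich tracts run 18 bases in Malat1 and 11 in Neat1. Searched in this order within 120 bases on the transcribed strand, the first motif, the second and a tract of at least 5 As followed by GCAAAA occurred in 2 of 141767 annotated transcripts (0.00141%), 1 of each gene; the search took the motifs from these genes, so the rarity is a description only.

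The under-1% barcodes were large and rich in genes. Their median UMI count, mitochondrial UMIs included, was 42032, 31101 and 35637 in the 3 libraries, against 49625, 40299 and 46946 in 1-10% barcodes. The medians of non-mitochondrial UMIs were 41847, 31050 and 35548.5, against 46322.5, 37618 and 44101.5. Their median number of genes detected was 5394, 5233 and 5626, against 5826, 5829 and 6233. After each barcode was thinned to 5000 non-mitochondrial UMIs, the medians were 1614, 1781 and 1833 genes in under-1% barcodes and 1692, 1880 and 1887 in 1-10% barcodes, a mean difference of -77 genes. Thinning left out no under-1% barcode and 8, 14 and 3 of the 1-10% barcodes. The under-1% class was lower in every library, and 3 pairs cannot give an exact two-sided sign-flip permutation p below 0.25. Every under-1% barcode still had at least 1 mitochondrial UMI, and their median mitochondrial share was 0.38%, 0.31% and 0.37%, against 6.5%, 6.99% and 7.10% in 1-10% barcodes.

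All 13 mt- genes were lower in under-1% barcodes, by 9.55- to 22.5-fold over genes and libraries, as the choice of barcodes requires of their sum. mt-Co3, a subunit of cytochrome c oxidase, had 1042, 818 and 1034 UMIs in 1000000 of all UMIs in under-1% barcodes, against 13657, 13271 and 13776 in 1-10% barcodes. Relative to all mitochondrial UMIs, the genes differed less: the share of each was 0.755 to 1.51 times that in 1-10% barcodes. The ends of both ranges rest on few UMIs in under-1% barcodes. They were mt-Nd6 at 19 h with Dox (13 UMIs, 22.5-fold, 0.755) and mt-Atp8 at 30 h with Dox (57 UMIs, 9.55-fold, 1.51). mt-Co3 made up 23.6%, 21.3% and 22.9% of mitochondrial UMIs in under-1% barcodes, against 22.3%, 20.4% and 21.2% in 1-10% barcodes. mt-Cytb, of complex III, was over-represented among the remaining mitochondrial UMIs by 1.12- to 1.24-fold, and mt-Nd3, of complex I, under-represented at 0.815 to 0.887 of its share in 1-10% barcodes. At the limit itself, the 25, 11 and 9 barcodes with 0.9% to 1% mitochondrial UMIs had median Malat1 shares of 0.38%, 0.59% and 0.94% of non-mitochondrial UMIs, and the 12, 13 and 16 barcodes with 1% to 1.1% had 0.30%, 1.22% and 2.25%. At the limit of 5000 UMIs there were 5, 4 and 2 under-1% barcodes with 5000 to 5500 UMIs and 1, 3 and 3 with 4500 to 5000.

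The class was common in these 3 libraries and rare elsewhere. It made up 14.6%, 11% and 9.59% of barcodes with at least 5000 UMIs, and 0.297% to 0.989% in the other 6 libraries, which held 141 such barcodes. Of the under-1% barcodes, 5, 2 and 4 had a sequence also found in another library (1.18%, 0.536% and 1.42%), against 21, 18 and 16 of the 1-10% barcodes (1.21%, 1.08% and 1.23%). The 9 fibroblast markers (Col1a1, Col1a2, Col3a1, Fn1, Vim, Pdgfra, Pdgfrb, Thy1, Sparc) summed to 9019, 10249 and 10815 CPM in under-1% barcodes and to 9083, 11138 and 11285 CPM in 1-10% barcodes. The summed levels of other cells' markers were low, apart from those of smooth muscle: 0.82 to 1.15 against 0.77 to 1.26 CPM for 6 erythroid genes, with Hbb-bs and Hbb-bt at 0 in both classes and Alas2 at 0 in under-1% barcodes and at 3 UMIs in 1-10% barcodes; 15.2 to 20.01 against 14.2 to 16.6 CPM for 4 platelet genes, with Pf4 at 0 in under-1% barcodes; and 16.8 to 22.5 against 15.5 to 20.1 CPM for 6 leukocyte genes, with Cd3e at 0 in both. Epithelial markers stood at 0.16 to 0.31 against 0.14 to 0.58 CPM, endothelial markers at 0.76 to 1.45 against 0.66 to 1.79 CPM, neural markers at 3.48 to 6.91 against 5.35 to 9.21 CPM, and smooth muscle markers, which fibroblasts also express, at 390.0 to 457 against 363 to 519.6 CPM. Leukocyte sums were higher in the under-1% barcodes of all 3 libraries, and neural sums lower in all 3. Platelet sums were higher at 30 h without Dox and 19 h with Dox, and level at 30 h with Dox (16.09 against 16.08 CPM). Some platelet and leukocyte genes had few UMIs, in under-1% sums that were also smaller in total. Ppbp had 1, 0 and 0 against 13, 12 and 12 UMIs, and Csf1r 3, 0 and 0 against 15, 5 and 9. Cd79a had 1, 0 and 0 against 3, 7 and 4, and Ptprc 2, 2 and 1 against 5, 3 and 5. Of the markers of other cells with enough UMIs to be tested, Itga2b (platelet), Lyz2 (leukocyte), Tagln and Acta2 (smooth muscle) were called higher by edgeR and Snap25 (neural) lower, and their part in the results was not tested.

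Malat1 was scarce in most under-1% barcodes. Its median share of non-mitochondrial UMIs per barcode was 0.144%, 0.253% and 0.162% in under-1% barcodes, against 1.45%, 2.73% and 2.19% in 1-10% barcodes. The spread within the class was wide: the upper 10% of under-1% barcodes held more than 2.22%, 3.05% and 3.39%. Under-1% barcodes with less than 0.1% Malat1 numbered 188, 120 and 113, and those with 2% or more 51, 66 and 55; the 1-10% class had 103, 22 and 28 below 0.1% and 686, 1024 and 692 at 2% or more. After thinning to 5000 UMIs, 69.6%, 61.7% and 61.7% of under-1% barcodes had Malat1 in under 0.5% of UMIs, against 25.3%, 12.5% and 18.5% of 1-10% barcodes. Malat1 had 0 UMIs at that depth in 4.94% (exact 95% interval 3.08% to 7.45%), 3.75% (2.07% to 6.22%) and 3.90% (1.96% to 6.87%) of under-1% barcodes, against 0.521% (0.239% to 0.988%), 0.121% (0.0146% to 0.435%) and 0 of 1293 (exact upper bound 0.285%) of 1-10% barcodes; such intervals cover counting error only. At matched depth the gap remained: 1-10% barcodes paired one to one with under-1% barcodes on non-mitochondrial UMIs had median Malat1 shares of 1.27%, 2.42% and 1.88%.

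**Figure D1:**
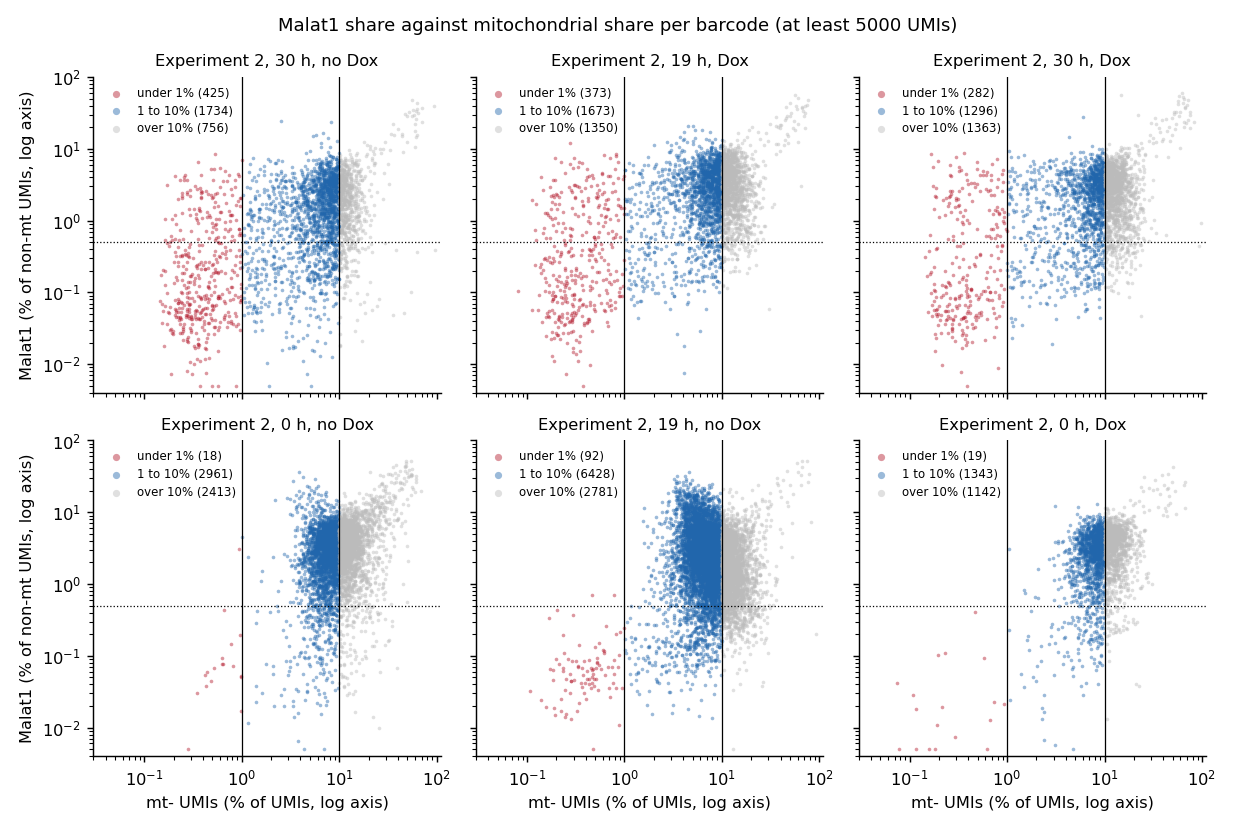
Malat1 share of non-mitochondrial UMIs (log axis) against the share of mitochondrial UMIs (log axis), 1 point per barcode with at least 5000 UMIs, for the 6 libraries of Experiment 2; vertical lines mark 1% and 10%, the dotted line 0.5% Malat1, points at 0 are drawn at the foot, and numbers of barcodes are in the legends. In the top row (the 3 libraries described) under-1% barcodes spread from below 0.1% to above 2% Malat1; in the bottom row (the other Experiment 2 libraries) nearly all of the 18, 92 and 19 under-1% barcodes lie below 0.5%.

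The median Malat1 share was lowest below 0.5% mitochondrial UMIs and higher in each range from there to 10%; between the ranges below 0.5% its order differed between libraries. In the library of 30 h without Dox, the median was 0.0885%, 0.0915% and 0.313% in barcodes with under 0.25%, 0.25% to 0.5% and 0.5% to 1% mitochondrial UMIs, and 0.465%, 1.04% and 1.84% in those with 1% to 2%, 2% to 5% and 5% to 10%. With Dox at 19 h the same 6 ranges gave 0.189%, 0.172%, 0.653%, 0.675%, 2.2% and 3.01%. With Dox at 30 h they gave 0.0978%, 0.128%, 0.569%, 1.25%, 1.53% and 2.44%. Barcodes with 10% to 20% mitochondrial UMIs had 1.91%, 3.11% and 2.67%.

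Summed over barcodes, the comparison covered 12876 genes, and 4058 passed edgeR's quasi-likelihood test at an adjusted p (Benjamini-Hochberg) under 0.05 (31.5%): 2218 were higher (17.2%) and 1840 lower (14.3%) in under-1% barcodes. Most changes were small; 6 of the called genes were at least 2-fold higher and 147 at least 2-fold lower. The CPM of the classes did not overlap, with all 3 libraries higher, for 360 genes (2.8%), and with all 3 lower for 1442 genes (11.2%); 7441 genes (57.8%) had 1 direction in all 3 libraries, called or not. How the totals were scaled decided the balance of directions. With library totals alone the median of all genes was -0.11 on the log2 scale, and 800 genes were higher and 3422 lower (18.9% of calls higher, against 54.7%); changes below are relative to the bulk of genes (trimmed mean scaling) unless another scale is named. Without pairing the classes by library, 0 genes passed in edgeR (1435 at an unadjusted p under 0.05), and DESeq2 with pairing called 2038. Leaving out the library of 30 h without Dox lowered the count to 2134 genes and those of the lists below with it: 48 of 80 respiratory chain genes, 1 of 82 ribosomal protein genes, 11 of 43 genes of mitochondrial gene expression, 7 of 31 ER genes and 6 of 36 actin and tubulin genes were then called higher, against 1033 of all 13001 genes tested. Of 30 mitosis genes 12 were then lower and 1 higher, and of 19 cytokinesis genes 6 were lower and 1 higher, against 1101 of all genes lower.

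Nuclear noncoding RNAs were lower in under-1% barcodes. Of 17 tested, 10 fell (58.8%) and none rose, where 14.3% of all genes tested fell and 17.2% rose. Their median log2 change was -0.65, against 0.01 over all genes. Malat1 had 8579, 12426 and 13603 CPM in under-1% barcodes, against 19966, 32148 and 25738 CPM in 1-10% barcodes. The classes did not overlap, and the means were 11536 ± 2628 and 25951 ± 6094 CPM (SD, n = 3 libraries each). The log2 change was -1.06 (SE 0.07, edgeR adjusted p = 2.38e-49).

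Some other RNAs known to stay in the nucleus moved the same way, while others of the list were not called. Neat1 had 123, 245 and 180.1 CPM in under-1% barcodes, against 259, 439.8 and 291 CPM in 1-10% barcodes, a log2 change of -0.76 (SE 0.05, edgeR adjusted p = 8.8e-40). Kcnq1ot1, a chromatin-bound antisense RNA of an imprinted region (chr7:143203458-143296549, minus strand), had 40.8, 62.0 and 84.8 CPM, against 92.3, 175 and 165 CPM (log2 change -1.1, SE 0.05, edgeR adjusted p = 1.61e-73). In each of these 2 genes every library was lower in its under-1% barcodes, although for Neat1 the value at 19 h with Dox (245 CPM) came close to the lowest of the 1-10% class (259 CPM). At 30 h with Dox, Tug1 was nearly level, with 328 of 11001216 non-mitochondrial UMIs in under-1% barcodes against 1883 of 60931552. Xist had few UMIs, and at 30 h with Dox it had 4 in each class, a higher share in under-1% barcodes. Falls were ranked among called genes with a mean of at least 10 CPM in a class and 1 direction in all 3 libraries. The 12 largest of these also held Gm26917, a noncoding gene listed here with ribosomal RNA-like features (22.0, 28.8 and 48.4 against 45.4, 70.3 and 87.5 CPM, log2 change -0.95), Mir100hg, a microRNA host transcript (15.3, 23.9 and 30.1 against 27.3, 54.6 and 54.4 CPM, -0.85), and Lncpint (4.46, 6.90 and 6.82 against 7.92, 16.7 and 11.1 CPM, -0.85). Their ranges overlapped between classes for Gm26917 and Mir100hg, though every library was lower in its own under-1% barcodes. Over all 1081 long noncoding genes tested, 202 were lower (18.7%) and 52 higher (4.81%), against 14.3% and 17.2% of all genes. Their share called lower was thus near that of all genes, and their share called higher was smaller.

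Genes whose transcripts are known for detained introns, mostly splicing regulators, were lower as well; such transcripts wait in the nucleus with unspliced introns. Of 34 tested, 23 fell (67.6%) and none rose, where 14.3% of all genes tested fell and 17.2% rose. Their median log2 change was -0.22, against 0.01 over all genes. Luc7l2, a protein associated with the U1 snRNP (gene at chr6:38551334-38609470), had 165, 216 and 255 CPM in under-1% barcodes, against 279.9, 386 and 390.4 CPM in 1-10% barcodes. The classes did not overlap, and its log2 change was -0.63 (SE 0.05, edgeR adjusted p = 2.8e-28). Ogt, the O-GlcNAc transferase, had 40.8, 54.0 and 70.7 CPM in under-1% barcodes, against 75.2, 108 and 110.1 CPM in 1-10% barcodes (log2 change -0.73). Tra2a, a splicing activator, fell by 0.63 on the log2 scale. With trimmed mean scaling, host genes of small nucleolar RNAs, many of them noncoding, did not share the direction. Of 18 tested 5 rose (27.8%) and 4 fell (22.2%), with a median of 0.00. With library totals alone 1 rose and 8 fell, where 800 of all 12876 genes rose and 3422 fell.

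**Figure D2:**
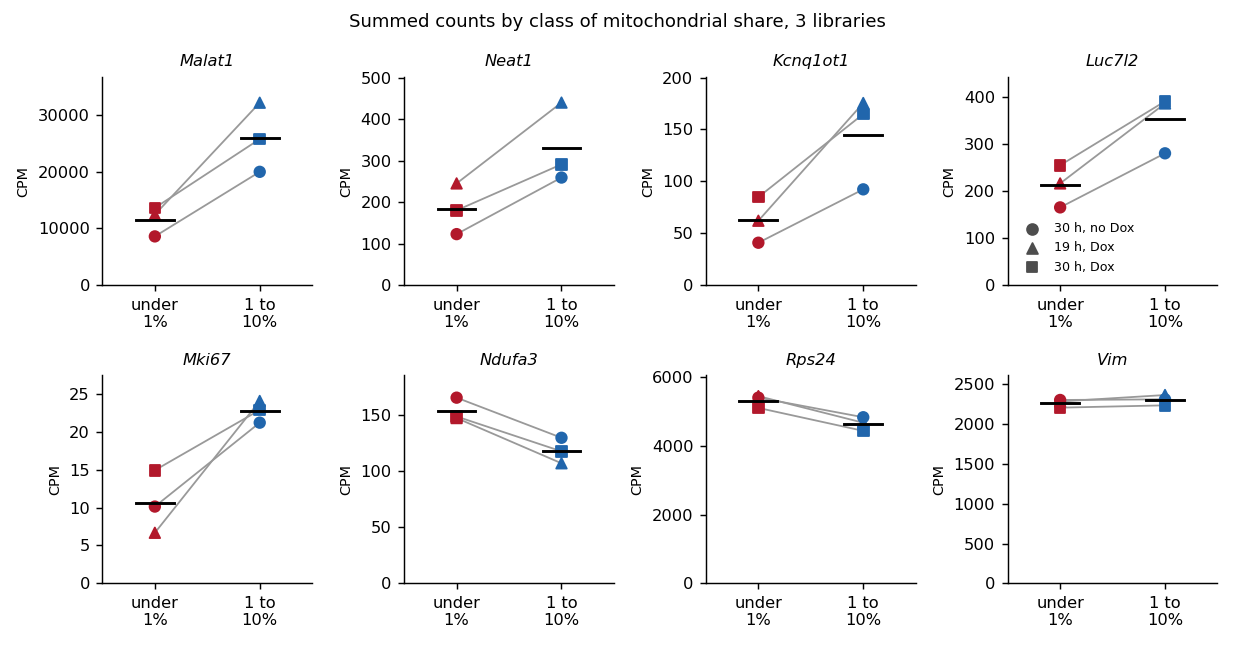
CPM summed over under-1% barcodes (left, red) and 1-10% barcodes (right, blue) for 8 genes; each symbol is 1 library, grey lines join the classes of a library, and black bars are means of 3 libraries. Malat1, Neat1, Kcnq1ot1, Luc7l2 and Mki67 are lower in under-1% barcodes in every library, Ndufa3 and Rps24 are higher in every library, and Vim overlaps between classes.

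mRNAs of proteins of the mitochondrion encoded in the nucleus were not lost with the mitochondrial RNA: they were higher. Of 80 respiratory chain and ATP synthase genes tested, 73 rose and none fell (median log2 change 0.26, and 0.15 with library totals alone, where 55 rose and 1 fell). Together they took 2.96%, 3.34% and 3.1% of non-mitochondrial UMIs in under-1% barcodes, against 2.74%, 2.84% and 2.84% in 1-10% barcodes. Ndufa3, a subunit of complex I (gene at chr7:3617373-3620327), had 166, 147 and 149 CPM, against 129.9, 107 and 118 CPM. The classes did not overlap (log2 change 0.49, SE 0.05, edgeR adjusted p = 1.28e-18). Ndufv3, also of complex I, rose by 0.42, Atp5e of ATP synthase by 0.38 and Ndufs7 of complex I by 0.36 on the log2 scale. Of 43 genes of mitochondrial gene expression, such as Mrpl52 of the mitochondrial ribosome (log2 change 0.33), 21 rose and 2 fell (7 and 3 with library totals alone). Over all 12876 genes tested, 17.2% rose and 14.3% fell, or 800 and 3422 genes with library totals alone. Of 35 genes of import, dynamics and mitophagy, 16 rose and 2 fell (9 and 6 with library totals alone); Timm8b of the intermembrane space (0.33), Fis1, a fission factor (0.31), and Tomm7 of the import pore (0.30) rose.

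Cytosolic ribosomal protein mRNAs were also higher. Of 82 tested, 64 rose and none fell (median log2 change 0.20, and 0.09 with library totals alone, where 44 rose and 4 fell). They took 42.2%, 37.0% and 35.9% of non-mitochondrial UMIs in under-1% barcodes, against 40.5%, 34% and 34.2% in 1-10% barcodes. Rps24 of the small subunit (gene at chr14:24487125-24496959) had 5403, 5446 and 5103 CPM, against 4832, 4672 and 4436 CPM; the classes did not overlap (log2 change 0.31, SE 0.06, edgeR adjusted p = 6.73e-06). The calls needed the library of 30 h without Dox: leaving it out, 1 of the 82 passed, the median was 0.19, and Rps24 had an edgeR adjusted p of 0.135. Leaving out 30 h with Dox, 40 passed. Of 38 translation factors, 14 rose and 3 fell (6 and 11 with library totals alone). Of all 12876 genes 17.2% rose and 14.3% fell (800 and 3422 genes with library totals alone). Eif3k, a subunit of eIF3, rose by 0.27 and Naca, of the nascent chain complex, by 0.28, while nucleolin (Ncl), a nucleolar protein, fell by 0.26 on the log2 scale.

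Genes of secretion, the cytoskeleton and the matrix gave smaller shifts. The counts below stand beside 17.2% of all 12876 genes higher and 14.3% lower, or 800 and 3422 genes with library totals alone. Of 31 genes of ER chaperones and the translocon, 13 rose and none fell with trimmed mean scaling, but 7 rose and 4 fell with library totals alone; Dad1, a subunit of the oligosaccharyltransferase, had 203, 225 and 224 CPM against 166, 177 and 195 CPM. Of 36 actin and tubulin genes 22 rose and 1 fell (8 and 7 with library totals alone), among them Tmsb10, an actin monomer binder, at 2252, 2298 and 1755 against 2005, 1832 and 1591 CPM. Of 36 secreted matrix genes 12 rose and 3 fell (7 and 9 with library totals alone). Dcn, the proteoglycan decorin, had 151, 119 and 171 against 126, 103 and 126 CPM and rose by 0.42. Pcolce, a procollagen processing enhancer, rose by 0.41 and Timp1, an inhibitor of metalloproteinases, by 0.39 on the log2 scale. Rises were ranked among called genes with a mean of at least 10 CPM in a class and 1 direction in all 3 libraries. The 12 largest of these held Mustn1 and Tcn2, a vitamin B12 carrier (log2 change 0.50 each). Mustn1, Tcn2, Dcn, Pcolce and Timp1 were each higher in the under-1% barcodes of all 3 libraries.

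**Figure D3:**
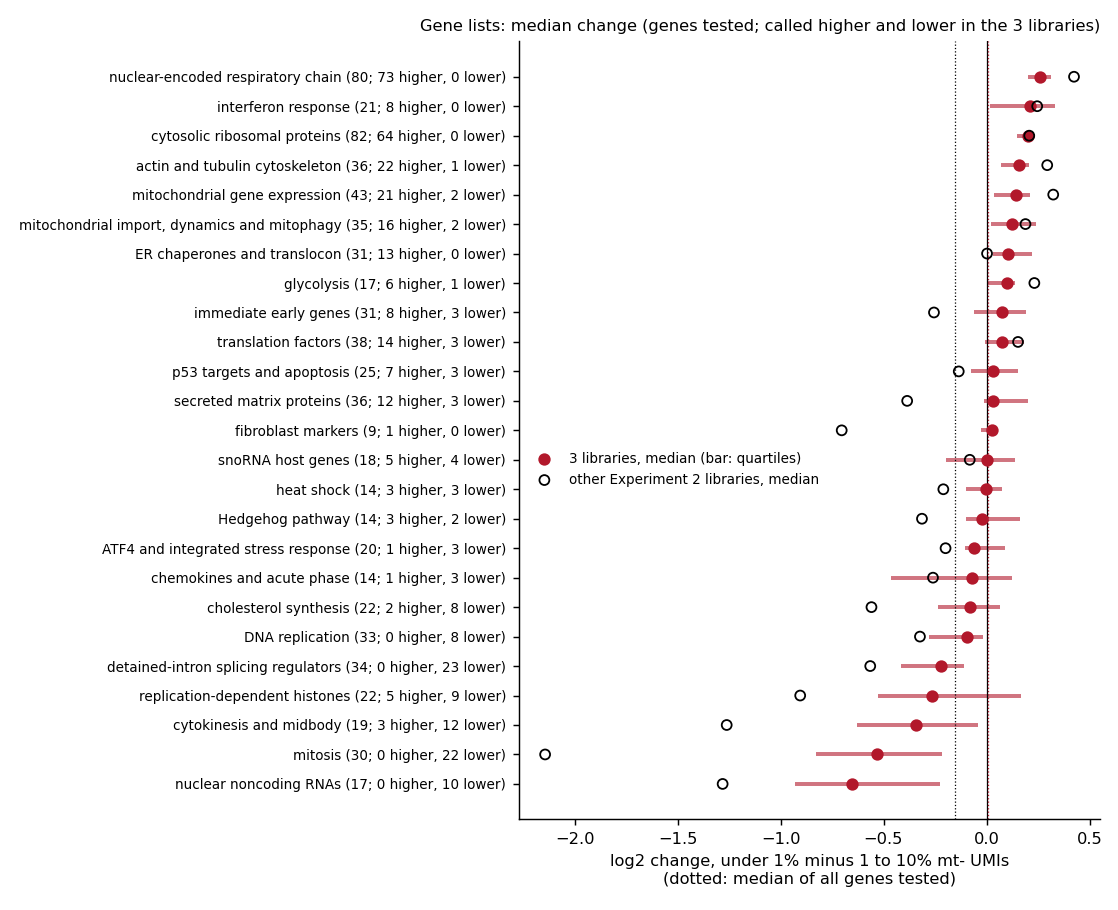
Median log2 change of each gene list, under-1% minus 1-10% barcodes, in the 3 libraries (red points; bars are the quartiles over genes) and in the other 3 Experiment 2 libraries with at least 10 barcodes per class (open circles); dotted lines are the medians of all genes tested. Labels give the genes tested and the numbers called higher and lower in the 3 libraries; nuclear noncoding RNAs and mitosis genes lie lowest and respiratory chain genes highest.

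Genes of cell division were lower in under-1% barcodes. Against 14.3% of all genes lower and 17.2% higher, 22 of 30 mitosis genes fell and none rose (median log2 change -0.53). Summed, they had 250.3, 247 and 328 CPM in under-1% barcodes, against 456, 413 and 412 CPM in 1-10% barcodes; barcodes above 10% mitochondrial UMIs were lower still, at 109, 179 and 181 CPM. Mki67, the proliferation marker (gene at chr7:135689784-135716361, minus strand), had 10.1, 6.67 and 14.9 CPM, against 21.2, 24.0 and 22.8 CPM (log2 change -1.01, SE 0.08, edgeR adjusted p = 9.05e-31). Cenpf, a kinetochore protein, had 14.2, 15.6 and 15.6 against 32.4, 32.3 and 29.6 CPM (-0.96, SE 0.07, adjusted p = 3.97e-35), and Cenpe, a mitotic kinesin, 8.38, 5.98 and 8.27 against 20.3, 15.9 and 14.4 CPM (-1.07). The classes did not overlap for any of these 3 genes. Sums over barcodes cannot tell fewer dividing cells from less RNA per cell. Of 19 genes of cytokinesis and the midbody 12 fell and 3 rose; Prc1, which bundles the central spindle, and Anln (anillin) both fell by 0.85. Of 33 DNA replication genes 8 fell, among them Mcm5 of the replicative helicase (2.07, 2.45 and 4.55 against 5.15, 5.44 and 6.5 CPM), but none of 32 fell against 1-10% barcodes matched on UMIs. Of 22 replication-dependent histone genes 9 fell and 5 rose: Hist1h1b fell by 0.83, largely through 19 h with Dox (7.40, 6.90 and 13.6 against 13.04, 27.6 and 13.7 CPM), and Hist1h2bc rose by 0.45. Against barcodes matched on UMIs 2 of 18 histone genes fell and 4 rose, where 1208 of all 11581 genes tested fell and 1582 rose. Reads of near-identical histone genes can be split between them, so single histone values are less certain.

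Among stress and signalling lists, interferon response genes rose in 8 of 21 and fell in none, with a median log2 change of 0.21 (6 and 2 with library totals alone), and Isg15 stood at 67.3, 60.2 and 49.99 against 59.997, 52.4 and 37.3 CPM. Cholesterol genes fell in 8 of 22 and rose in 2 (14 and 1 with library totals alone), among them Lss, lanosterol synthase, with 27.6, 27.6 and 31.2 against 35.1, 41.0 and 42.1 CPM (log2 change -0.34). p53 targets and apoptosis genes rose in 7 of 25 and fell in 3 (4 and 6 with library totals alone); Cdkn1a, which encodes p21, had 251, 428.5 and 449 against 212, 414 and 395 CPM, and Bax, a pore-forming apoptosis protein, 299.8, 389 and 349 against 277, 341 and 331 CPM, and neither passed without the library of 30 h without Dox. Immediate early genes rose in 8 of 31 and fell in 3 (1 and 8 with library totals alone), heat shock genes rose in 3 of 14 and fell in 3 (0 and 7), and genes of the ATF4 stress response rose in 1 of 20 and fell in 3 (0 and 9 on the same scale). Of all 12876 genes tested, 17.2% rose and 14.3% fell, and with library totals alone 800 rose and 3422 fell. Beside these, 25.8% of immediate early genes rose and 9.68% fell. For heat shock genes the shares were 21.4% and 21.4%, and for p53 targets and apoptosis genes 28% and 12%. Counts near the shares of all genes are not particular to a list. Of 14 chemokine and acute phase genes 1 rose and 3 fell, with the largest change in Saa3 (0.109, 0.690 and 0.364 against 0.255, 21.5 and 0.230 CPM), which came from the 19 h library with Dox: 9 UMIs against 1408. Without that library the Saa3 change was -0.16 (edgeR adjusted p = 0.912). Of 9 fibroblast markers 1 rose, Sparc by 0.15, while with library totals alone none rose and 3 fell; Vim had 2299, 2280 and 2203 against 2307, 2361 and 2232 CPM (log2 change 0.09, adjusted p = 0.257, and -0.025 with library totals alone).

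The Hedgehog genes that the study followed showed no common shift between classes. Ptch1, the receptor and a pathway target, had 50.2, 71.5 and 93.4 CPM in under-1% barcodes, against 59.4, 96.7 and 127 CPM in 1-10% barcodes (log2 change -0.27, SE 0.05, edgeR adjusted p = 9.9e-06; -0.11 with adjusted p = 0.151 against barcodes of 2% to 5%). Gli1, the target that encodes a transcriptional activator, had 18.4, 24.9 and 33.6 against 17.2, 24.6 and 31.7 CPM (0.18, adjusted p = 0.0246), a call lost under most of the alternatives, for instance with library totals alone (0.07, adjusted p = 0.470). Gli2 and the added feature GFP_g1 differed by less than the test could show (adjusted p = 0.509 and 0.393), and Hhip had 0 UMIs in both classes. Of 14 pathway genes tested 3 rose (21.4%) and 2 fell (14.3%), near the shares of all 12876 genes (17.2% and 14.3%). With library totals alone 0 and 5 pathway genes passed, against 800 and 3422 of all genes. For 30 h with Dox minus 30 h without Dox, the log2 difference of Gli1 was 0.87 in under-1% and 0.88 in 1-10% barcodes, that of Ptch1 0.90 and 1.1, and that of GFP_g1 0.33 and 0.28. Other genes differed more between classes: Tagln, an actin-binding protein, had -0.12 in under-1% and 0.38 in 1-10% barcodes, Hsd11b1, a glucocorticoid-activating enzyme, 1.28 and 0.36, and Igf1, a growth factor, 1.46 and 2.31; these 3 were chosen after their values were seen. Over 7526 genes with at least 10 CPM, this difference correlated between classes with r = 0.92, and all 202 genes that differed at least 2-fold in 1-10% barcodes had the same sign in under-1% barcodes; genes share these libraries, so this is a description. Over all 12876 genes tested r was 0.71, and 765 of 801 such genes had the same sign. For 30 h minus 19 h, both with Dox, where 7 genes passed 2-fold, r was 0.54, and 0.28 over all genes tested.

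The under-1% barcodes were not uniform, and Kcnq1ot1 and Neat1 in them followed the Malat1 share. In under-1% barcodes of the library at 30 h without Dox, Kcnq1ot1 stood at 3.29, 15.8, 59.5 and 133 CPM in the ranges of under 0.1%, 0.1% to 0.5%, 0.5% to 2% and 2% or more Malat1. It stood at 1.74, 20.4, 67.7 and 176 CPM at 19 h with Dox and at 3.45, 22.9, 107 and 210.4 CPM at 30 h with Dox. Meg3 did not rise throughout at 30 h with Dox, with 1.38, 4.29, 5.65 and 2.48 CPM in the same ranges. Neat1 ran from 32.9, 35.2 and 27.6 CPM in the lowest range to 306, 692 and 358 CPM in the highest. Ribosomal protein mRNAs ran the other way, at 44.5%, 40.0% and 39.7% of UMIs in the lowest range and 37.5%, 32.4% and 32.2% in the highest, as did respiratory chain mRNAs, at 3.27%, 3.92% and 3.53% and at 2.66%, 3.04% and 2.78%. Detained-intron genes went with Malat1, at 0.267%, 0.304% and 0.318% and at 0.484%, 0.566% and 0.613%. Depth moved with Malat1 too: the median was 29503, 19617 and 23753 UMIs per under-1% barcode in the lowest range, and 49825, 39827 and 49155 in the highest, and its part in these levels was not tested. The 1-10% barcodes showed the same order, with Kcnq1ot1 at 6.87, 0 and 6.85 CPM in the lowest and 133, 229 and 227 CPM in the highest range.

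Within ranges of Malat1, chosen after seeing the data, fewer genes were called between the classes, but not every change was smaller. In all barcodes the mitosis median was -0.53, that of ribosomal protein genes 0.20 and that of respiratory chain genes 0.26. Among barcodes with at least 0.5% Malat1 (124, 145 and 106 under-1% barcodes and 1301, 1455 and 1058 of 1-10%), edgeR called 66 of 12621 genes (0.523%), 26 higher (0.206%) and 40 lower (0.317%), with 1207 at an unadjusted p under 0.05. No ribosomal protein gene of 82 passed (7 at an unadjusted p under 0.05; median log2 change 0.02) and no respiratory chain gene of 80 (24 at an unadjusted p under 0.05; median 0.08). Mitosis genes still fell, 8 of 30 with a median of -0.60; Cenpf changed by -0.99 (adjusted p = 3.86e-06) and Top2a by -0.65 (adjusted p = 0.00141). Of 34 detained-intron genes 4 fell (median -0.15), and of 17 nuclear noncoding RNAs 3 fell (median -0.27), 1 of them Malat1, whose share set the range.

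Among barcodes with under 0.5% Malat1 (301, 228 and 176 of under-1% and 433, 218 and 238 of 1-10%), edgeR called 942 of 11008 genes (8.56%), 583 higher (5.3%) and 359 lower (3.26%). There 50 of 82 ribosomal protein genes rose (median 0.11), 43 of 80 respiratory chain genes rose (median 0.15), 19 of 34 detained-intron genes fell (median -0.19) and 17 of 30 mitosis genes fell (median -0.58). Kcnq1ot1 changed by -1.39, Mki67 by -1.63 and Neat1 by -0.96 on the log2 scale, against -1.10, -1.015 and -0.76 in all barcodes. Malat1 still differed in the same direction within both ranges, so neither holds it level, the ranges hold fewer barcodes than the whole, and the difference between ranges was not tested.

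**Figure D4:**
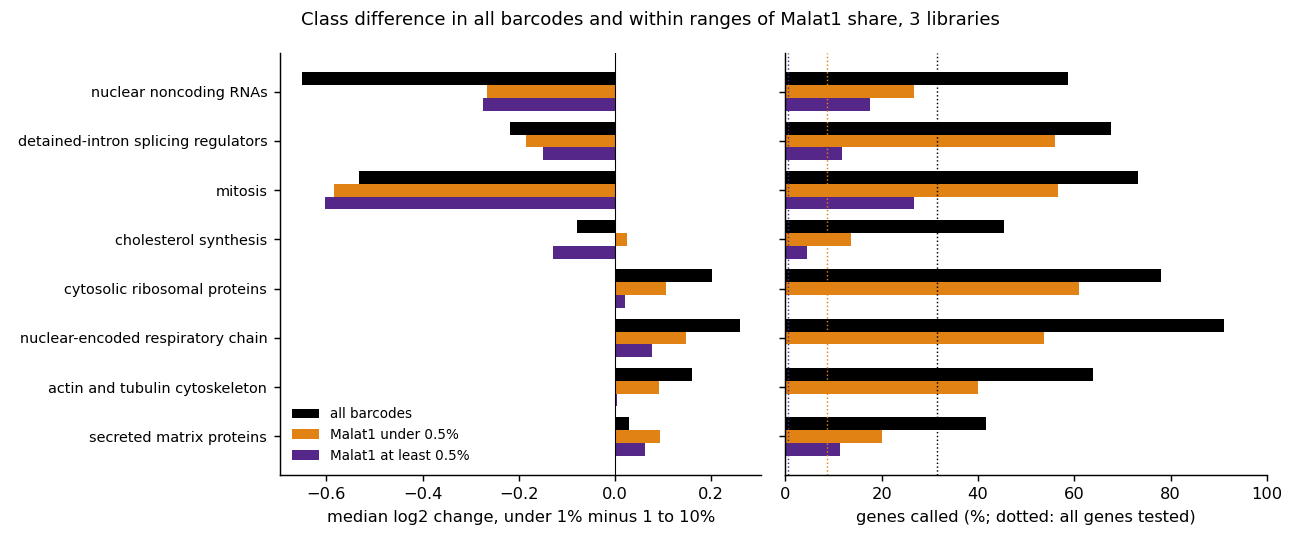
Median log2 change (left) and share of genes called (right, with all genes as dotted lines), under-1% against 1-10% barcodes, for 8 gene lists in all barcodes (black), those with under 0.5% Malat1 (orange) and those with at least 0.5% (purple). Ribosomal protein and respiratory chain medians lie near 0 at 0.5% Malat1 or more (0.02 and 0.08), whereas the mitosis median is -0.53 in all barcodes and -0.60 in that range.

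Transcript length went with the direction of change. Among 11778 protein-coding genes, the quintile with the shortest annotated transcripts (276 to 1756 bases, longest transcript of a gene) had 48.8% of genes higher and 1.99% lower in under-1% barcodes, while the quintile with the longest (5111 to 123179 bases) had 2.63% higher and 35.1% lower. The median log2 change fell by steps, 0.18, 0.08, 0.01, -0.06 and -0.14 from the shortest quintile to the longest. Spearman's rho of the change with transcript length was -0.49, with gene span -0.40, with the number of exons -0.30 and with the mean CPM in 1-10% barcodes 0.18, across genes, which are not independent replicates. Ribosomal protein and respiratory chain mRNAs are short, and Kcnq1ot1 (93092 bases annotated), Neat1, Cenpf (11130 bases) and Mki67 (10061 bases) are long, so list and length cannot be told apart by these values.

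**Figure D5:**
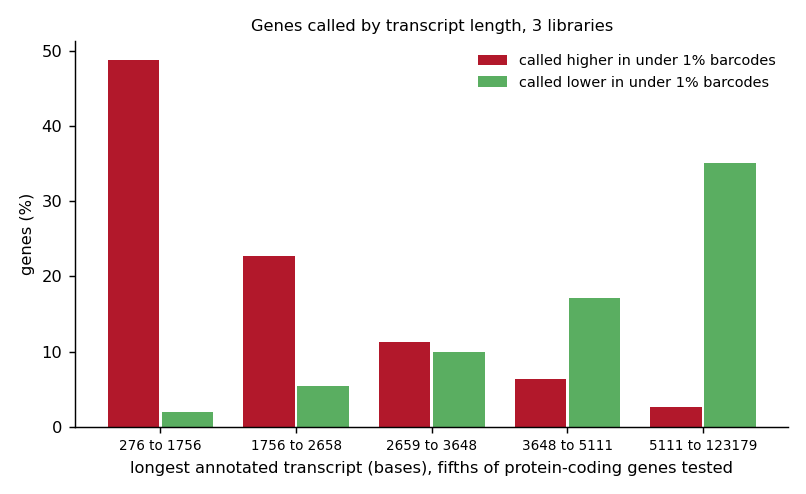
Percentage of protein-coding genes called higher (red) and lower (green) in under-1% barcodes, by quintile of the length of a gene's longest annotated transcript in bases. The share called higher is 48.8% in the shortest quintile and 2.63% in the longest, and the share called lower is 1.99% in the shortest and 35.1% in the longest.

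The other libraries of Experiment 2 held a smaller class with less Malat1 and another depth. Its median was 6662, 21075 and 19138 UMIs at 0 h without Dox, 19 h without Dox and 0 h with Dox. The 1-10% barcodes there had 28390, 7960 and 29300 UMIs, and the part of depth in the differences below was not tested. With 18, 92 and 19 under-1% barcodes at 0 h without Dox, 19 h without Dox and 0 h with Dox, against 2961, 6428 and 1343 of 1-10%, edgeR called 1070 of 11715 genes (9.13%), 366 higher (3.12%) and 704 lower (6.01%). Malat1 had 1982, 1135 and 824 CPM in under-1% barcodes, against 32048, 27816 and 29191 CPM in 1-10% barcodes, resting on 338, 2563 and 344 UMIs. Its log2 change was -4.47 (SE 0.20, edgeR adjusted p = 1.2e-109). In those libraries 17 of 18, 90 of 92 and 19 of 19 under-1% barcodes had less than 0.5% Malat1, against 301 of 425, 228 of 373 and 176 of 282 in the 3 libraries. Kcnq1ot1 changed by -3.79 and Neat1 by -2.95, 15 of 30 mitosis genes fell (median -2.14) and 23 of 80 respiratory chain genes rose (median 0.42). Ribosomal protein genes had a median change of 0.21 there, with 1 of 82 called, and of 0.20 in the 3 libraries, and fibroblast markers fell in 5 of 9 (median -0.70), against a median of -0.15 over all genes there. These counts turned on single libraries: they were 1972 without 0 h without Dox, 33 without 19 h without Dox and 45 without 0 h with Dox. The difference of the class effect between both sets of libraries was itself tested in 1 fit: 481 of 12233 genes passed in edgeR (3.93%), 366 with a higher log2 change in the 3 libraries (2.99%) and 115 with a lower one (0.94%). Malat1 was among them, with a difference of 3.45 (SE 0.22, edgeR adjusted p = 6.69e-49).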

How the data were processed

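RNA of NIH3T3-CG cells was measured in 9 libraries with the 10x Genomics 3' v3.1 kit. The deposited values are raw UMI counts per gene and barcode, written by Cell Ranger 3.1.0 (Experiment 1) and 6.0.1 (Experiment 2) per the file headers, against mm10 per the submitters' processing notes; the filter behind the barcode lists and the use of strand are not given in the sources used here, so antisense and overlapping genes are less certain. No doublet caller was run, and doublets were not removed. Barcodes with at least 5000 UMIs were classed by mitochondrial share, mt- genes were dropped, and counts were summed per library and class, to 18454028, 13095582 and 11051106 UMIs under 1% and to 87674729, 69960891 and 65164051 at 1% to 10% before mt- genes were dropped.

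Sums were fitted with edgeR 4.0.16 in R 4.3.3 (filterByExpr, TMM factors, library as block and class, quasi-likelihood F test, Benjamini-Hochberg adjusted p under 0.05), with 2 residual degrees of freedom, so that small p-values rest on a spread shared over genes. Each SE was derived from the log2 change and its F statistic. Pairing comes from the library itself, since both classes of a library are barcodes of 1 suspension; the result with no block is given with the other alternatives. The same fit was run on the other Experiment 2 libraries with at least 10 barcodes per class, which leaves out Experiment 1 (4, 3 and 5 under-1% barcodes), and the difference of the class effect was fitted over all 6 libraries. The fit was tested on simulated counts first. Alternatives changed normalization, tool, filter, block, UMI limits, class limits, depth, the Malat1 range and the libraries.

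The barcodes, gene lists and tests were chosen with earlier results of these data known. Named genes are Malat1, Neat1, Gli1, Gli2, Ptch1, Hhip and GFP_g1, the 12 largest rises and 12 largest falls with at least 10 CPM in a class and 1 direction in all 3 libraries, and up to 4 genes per list by smallest p. Some genes that this rule names are not reported here.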

Additional observations from a re-analysis of the deposited data

Results flagged for a closer look

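The class difference itself differed between the 3 libraries and the other Experiment 2 libraries for 481 of 12233 genes (3.93%, edgeR's quasi-likelihood test of the interaction, Benjamini-Hochberg adjusted p under 0.05), 366 with a higher and 115 with a lower log2 change in the 3 libraries. With RLE size factors the split was 346 and 346. Values below are the log2 change in the 3 libraries minus that in the other libraries, which rests on 18, 92 and 19 under-1% barcodes there.

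The lists below are counted over their genes tested in the 3 libraries, which need not all have been in the interaction fit; of all genes in that fit 2.99% were higher. Of 17 nuclear noncoding RNAs 5 passed this test, all with a higher log2 change in the 3 libraries. The difference was 3.45 for Malat1, 2.64 for Kcnq1ot1, 2.21 for Neat1, 0.92 for Gm26917, which is also listed as ribosomal RNA-like, and 1.44 for Mir100hg, which is outside the list. Of 34 detained-intron genes 5 passed, all higher, with 1.48 for Ogt, 1.14 for Luc7l2 and 0.79 for Tra2a. Of 30 mitosis genes 10 passed and of 19 cytokinesis genes 4, all higher, while none of 33 DNA replication genes passed; the difference was 2.78 for Cenpe, 2.68 for Prc1, 2.29 for Anln, 2.05 for Top2a, 1.99 for Cenpf and 1.92 for Mki67. Of 22 histone genes 4 passed, all higher, among them Hist1h1b (1.62) and Hist1h2ap (1.44). Of 36 secreted matrix genes 8 passed, all higher. The difference was -0.52 for Isg15 and -0.51 for Ndufa3; of 80 respiratory chain genes 2 passed, both lower, and none of 82 ribosomal protein genes passed.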

How the results depend on the processing

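Of the 55 genes followed through the alternatives, 842 of 986 values kept direction and side of the threshold, 135 lost significance, 2 gained it and 7 changed sign. The count of 4058 genes called became 2038 with DESeq2 (1417 higher, 621 lower; 2031 of them among the 4058), 2497 against barcodes of 2% to 5%, 2003 with each barcode thinned to 5000 UMIs, 66 at 0.5% Malat1 or more and 942 below it; leaving out a library gave 2134 to 3273. Without the replicate block, which pairs the classes within a library, 0 genes passed in edgeR (1435 at an unadjusted p under 0.05), and Malat1 kept its change of -1.06 with an adjusted p of 0.381. Malat1 ran from -0.98 to -1.16 leaving out a library, and from -0.87 against 2% to 5% to -1.36 after thinning among the other alternatives, apart from the Malat1 ranges (-0.33 at 0.5% or more, -0.65 below). For the other libraries, the count of 1070 became 226 with DESeq2, 66 with no replicate block and 33 to 1972 leaving out a library. The count of 481 for the difference became 220 with DESeq2, 263 with no filter, 1 with no replicate block, 267 with libraries of at least 5 barcodes per class and 63 to 1041 leaving out a library (1041 without 0 h without Dox, 63 without 19 h without Dox and 158 without 0 h with Dox). With the class limit at 0.5%, the difference in barcodes under 0.5% Malat1 was 52.2 percentage points, against 45.6, and at 10000 UMIs that in genes detected was -119, against -77. Signs changed for Hist1h2ap (0.033 against barcodes matched on UMIs), Gli2 (0.12 after thinning), GFP_g1 (0.0058 against 2% to 5% and 0.22 below 0.5% Malat1) and Vim (-0.025 with library totals alone, -0.045 at 0.5% Malat1 or more, -0.10 below it). Of these, Hist1h2ap alone was called in the main fit, and Vim was called lower below 0.5% Malat1 (edgeR adjusted p = 0.0493). No gene kept its call in every alternative. Without the block, all 52 of the 55 genes that the main fit called lost their call, and the other 3 were not called in either fit. The cause of these changes was not tested. Fewer barcodes or UMIs enter the thinned, matched, 2% to 5% and Malat1 fits, which lowers what can be called.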

Other observations

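At the other end of the mitochondrial range, 22, 21 and 29 barcodes of the libraries at 30 h without Dox, 19 h with Dox and 30 h with Dox had over 50% mitochondrial UMIs. Their median Malat1 share was 28.6%, 34% and 32.4% of non-mitochondrial UMIs, and ribosomal protein mRNAs took 8.03%, 5.11% and 7.53%. Experiment 1 held 4, 3 and 5 under-1% barcodes at 0, 17 and 30 h, of which 1, 1 and 4 had under 0.5% Malat1; they were too few for a comparison.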
